A study of Homo sapiens with 3 samples.

Results

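C-dense clusters are the edited regions of the RBFOX2-APOBEC1 STAMP example in which at least 0.40 of all positions on the transcript's strand are C. They were chosen by dividing the number of C bases that each deposited cluster holds by its length (end minus start), without use of any edit or read count. They comprised 420 of 14295 clusters in replicate 1, 472 of 15181 in replicate 2 and 353 of 11367 in replicate 3, or 1245 of 40843 in all. The 3 replicates form 1 group of wild-type HEK293XT cells (lenti-X HEK293T, a line derived from transformed human embryonic kidney) in which a doxycycline-induced fusion of the RNA-binding protein RBFOX2 and the cytidine deaminase APOBEC1 was expressed for 72 h. According to the labels the cells were treated by transient transfection, although stable lines appear in the growth protocol. The RNA was polyA RNA, and no sample without the fusion or with the deaminase alone was analysed here. Replicates were thus compared with each other, and C-dense clusters with the remaining clusters of the same replicate. The authors call them biological replicates. The labels do not say whether they came from separate cultures, so how much of the spread between them is technical is not known.

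STAMP records where an RNA-binding protein has been on a transcript, because the fused deaminase converts nearby C bases to U, which are then read as T in RNA sequencing. Deamination by APOBEC1 depends on the bases around the C, and its natural sites lie in AU-rich RNA, whereas RBFOX2 binds a short element with a single C. C-rich RNA offers many C bases in contexts unlike these. FLARE, the method behind these clusters, tests windows for more edits than a background rate predicts and merges the windows that pass into clusters. Each cluster has an edit fraction, the share of edited ones among the C bases covered by reads. Covered and edited C bases are summed over reads, so a C position counts once for each read that covers it.

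The members were a small share of the clusters and held more C bases than the others. C-dense clusters made up 2.94% of the clusters of replicate 1 (Wilson 95% interval 2.67% to 3.23%), 3.11% of replicate 2 (2.84% to 3.40%) and 3.11% of replicate 3 (2.80% to 3.44%), with a mean of 3.05% ± 0.098 (SD, n = 3 replicates). These intervals cover counting error only. The median C density was 0.433 in each replicate, and the highest was 0.633, 0.667 and 0.600. A member held a median of 18 C bases in each replicate, against 8, 9 and 9 in the remaining clusters, at the same median length of 45 bases. Since the number of C bases of a cluster comes from the genome, it was the same in each of the 52 positions where C-dense clusters of different replicates had equal bounds. Lengths followed the windows of FLARE: 140, 164 and 126 members had 30 bases and 232, 254 and 170 had 45 bases.

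**Figure D1:**
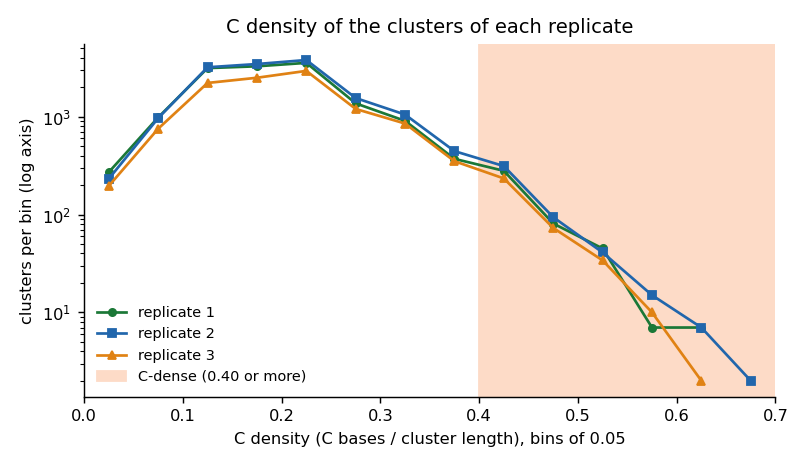
Number of clusters (log axis) in bins of 0.05 of C density, one line per replicate, with the C-dense range from 0.40 shaded. The 3 lines run together and fall steeply through the threshold, so that most C-dense clusters lie just above it, with a median of 0.433 in each replicate.

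A cluster of 45 bases with 18 C bases lies exactly on the threshold, and 131, 161 and 103 members had a C density of 0.40. Between 0.40 and 0.42 there were 140, 171 and 117 clusters with a median edit fraction of 1.12%, 1.24% and 1.38%. Between 0.38 and 0.40 there were 16, 27 and 15 clusters with a median edit fraction of 1.32%, 1.53% and 1.52%. No whole number of C bases puts a cluster of 30 or 45 bases into that lower interval, so clusters just outside the rule were longer than those just inside.

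Read coverage was lower in the members than in the remaining clusters, which is why they were compared at like coverage. Coverage per C base, which is the sum of reads over the C positions divided by the number of those positions, had a median of 12.8, 15.5 and 11.8 in the members of replicates 1, 2 and 3. In the remaining clusters it was 23, 22.4 and 19.8. The median of the mean read depth was likewise lower, at 18.6, 20.6 and 16.5 against 25.3, 24.8 and 21.3. At these depths most values rest on few reads, and the median member held 3 edited bases in 2 edited reads in each replicate. Edit fractions of single clusters are therefore imprecise, and the text relies on medians over clusters and on loci found in every replicate.

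The edit fraction of C-dense clusters was below that of the remaining clusters at every level of coverage. Under a coverage of 5 reads per C base, the median was 2.71% ± 0.401 (SD, n = 3) in the members and 6.90% ± 0.238 in the remaining clusters. It was 1.82% ± 0.057 against 4.77% ± 0.0454 at a coverage of 5 to 10, and 1.33% ± 0.0237 against 2.27% ± 0.0755 at 10 to 20. The distance narrowed further as coverage rose. At a coverage of 20 to 50 the medians were 0.872% ± 0.0644 and 1.45% ± 0.0288, at 50 to 100 they were 0.554% ± 0.0115 and 0.885% ± 0.00262, and from 100 on they were 0.416% ± 0.0201 and 0.600% ± 0.00417. In each of the 6 classes the members lay lower in all 3 replicates. Coverage was not equal within every class. Its median was 213 in the members and 167 in the remaining clusters from 100 on, and 12.3 and 14.2 at 10 to 20.

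**Figure D2:**
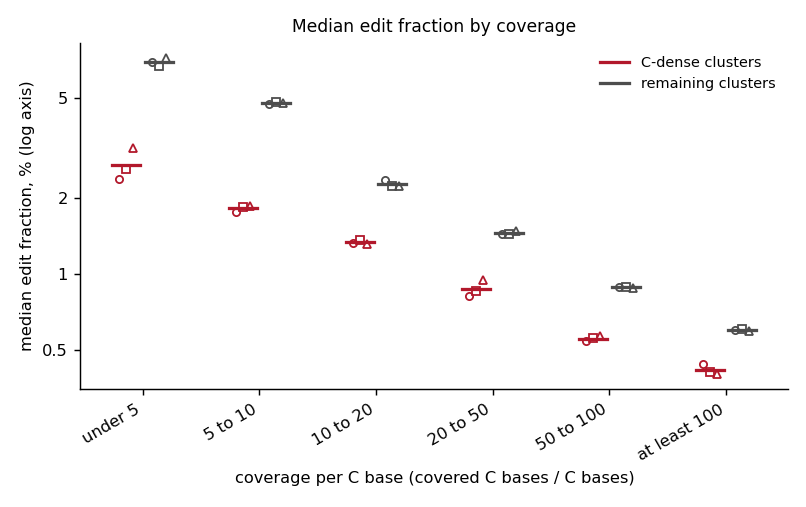
Median edit fraction (%, log axis) by class of coverage per C base, for C-dense clusters (red) and remaining clusters (grey); open symbols are replicates 1 (circle), 2 (square) and 3 (triangle) and bars are their means. Red symbols lie below grey ones in each class, from 2.71% against 6.90% under a coverage of 5 to 0.416% against 0.600% from 100 on.

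With the classes weighted by their number of members, the median edit fraction of C-dense clusters was 1.26%, 1.28% and 1.40% in replicates 1, 2 and 3, and that of the remaining clusters was 2.83%, 2.72% and 3.00%. The difference of -1.58, -1.44 and -1.60 percentage points (mean -1.54 ± 0.0872) was larger than the spread between replicates. An exact two-sided sign-flip permutation test over the 3 differences gave p = 0.25, the smallest p that 3 replicates allow. The edit fraction has the covered C bases as its denominator, so a cluster with more C bases has a lower edit fraction for the same number of edits. When clusters were instead compared at a like number of covered C bases, an alternative added after the values were seen, the difference shrank to -0.244 percentage points.

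Without regard to coverage, the median edit fraction declined most among the C-poor clusters and little towards the members. The median edit fraction was 5.80% ± 0.499 under a C density of 0.10, 1.92% ± 0.12 from 0.10 to 0.20, 1.48% ± 0.0745 from 0.20 to 0.30 and 1.32% ± 0.0539 from 0.30 to 0.40. In the members it was 1.27% ± 0.0455 from 0.40 to 0.50 and 1.23% ± 0.171 from 0.50 on. These last values differ by less than the spread between replicates. Coverage changed as well, with a median per C base of 12.7 under a C density of 0.10, 24.9 from 0.10 to 0.20, 20.9 from 0.20 to 0.30, 17.4 from 0.30 to 0.40, 13.5 from 0.40 to 0.50 and 12.6 from 0.50 on. Minimum C densities of 0.35, 0.40 and 0.45 were also compared at like coverage. The difference from the remaining clusters was -1.45 ± 0.0404, -1.54 ± 0.0872 and -1.70 ± 0.215 percentage points. The step from 0.40 to 0.45 lay within the spread between replicates. Across all clusters of a replicate, which share a library, Spearman's rho of C density and edit fraction was -0.321 (n = 14295), -0.351 (n = 15181) and -0.358 (n = 11367). Within the members it was 0.00336 (n = 420), -0.105 (n = 472) and -0.0957 (n = 353). C bases enter both the C density and the denominator of the edit fraction. The decline and the negative rho are therefore in part built into the measures.

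Summed over clusters, the order turned, because of a single mitochondrial cluster. All edited bases of the members over all their covered C bases gave 1.50%, 1.36% and 1.39%, above the 0.913%, 0.915% and 0.975% of the remaining clusters. A cluster in MT-ND2, which encodes a subunit of respiratory complex I, held 4530 of 7129 edited bases of the members of replicate 1, 4161 of 6999 in replicate 2 and 3226 of 5604 in replicate 3. Without it the sums gave 0.688%, 0.664% and 0.712%, below the remaining clusters. The members' share of all edited bases likewise went from 7.04%, 6.27% and 7.26% with this cluster to 2.69%, 2.64% and 3.22% without it.

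The number of edited bases, in contrast to the fraction, was slightly higher in the members at like coverage. The class-weighted mean of log2 edited bases was 1.95, 1.93 and 1.96 in the members of replicates 1, 2 and 3 and 1.74, 1.76 and 1.74 in the remaining clusters. The difference of 0.20 ± 0.0265 on the log2 scale is 1.15-fold and was positive in each replicate (exact sign-flip permutation test, p = 0.25). It was largest at high coverage. From 100 reads per C base on, the median number of edited bases, summed over reads, was 16.7 ± 4.04 in the members and 10.3 ± 0.577 in the remaining clusters. Coverage was unequal within this open class, with a median of 213 in its 21 to 27 members and 167 in its remaining clusters. Under a coverage of 10, both medians of edited bases were 2. At a like number of covered C bases the sign of the difference was reversed (-0.25 on the log2 scale). Not every class agreed in sign, since at a coverage of 5 to 10, the class with the most members, the difference was -0.10, -0.01 and -0.05 on the log2 scale, and at 10 to 20 it was negative in replicate 1.

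These edits were spread over more reads. At like coverage, the share of clusters with only 1 edited read was 19.3%, 17.8% and 22.7% in the members and 34.4%, 36.7% and 39.3% in the remaining clusters, a difference of -16.9 ± 1.94 percentage points. The median share of reads that were edited was 11.2%, 10.8% and 10.8% in the members and 8.09%, 7.87% and 8.77% in the remaining clusters, a difference of 2.69 ± 0.592 percentage points. Both measures were added after the values were seen, and in both every replicate pointed the same way (exact sign-flip permutation test, p = 0.25 each). The filter of FLARE sets the edits of a window against a background rate per editable base. A single edited base was held by 0, 5 and 1 members, against 618, 796 and 597 remaining clusters. How far the filter accounts for these differences was not tested.

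Edited reads of the members carried fewer edited bases each. Edited bases per edited read averaged 1.64, 1.64 and 1.71 in the members and 2.00, 2.06 and 2.10 in the remaining clusters at like coverage, a difference of -0.39 ± 0.0299 (exact sign-flip permutation test, p = 0.25). The size and sign of this difference depended on cluster length. Among clusters of 45 bases it was -0.101, -0.134 and -0.214 in the 3 replicates. Among those of 30 bases it was 0.121, -0.0275 and 0.298, with a mean of 0.13 ± 0.163 that is within the spread between replicates. Clusters of 90 or more bases were rare among the members, with 8, 11 and 18, and numbered 2036, 2045 and 1482 among the remaining clusters.

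**Figure D3:**
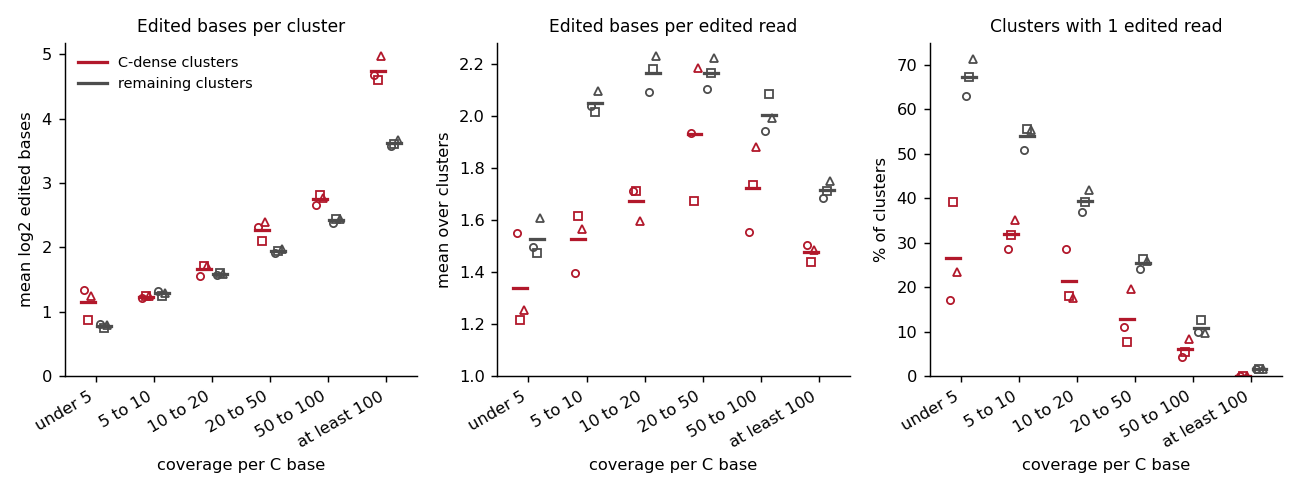
Mean log2 edited bases per cluster (left), edited bases per edited read (middle, axis from 1) and percent of clusters with 1 edited read (right) by class of coverage per C base, for C-dense (red) and remaining clusters (grey); open symbols are replicates 1 (circle), 2 (square) and 3 (triangle), bars their means. Red lies above grey at high coverage in the left panel and below it in most of the middle and right panels. The differences at like coverage were 0.20, -0.39 and -16.9 percentage points.

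The number per read was compared at a like number of edited reads. In clusters with 1 edited read, that read carried on average 2.84 ± 0.116 edited bases in the members and 2.83 ± 0.0334 in the remaining clusters. In clusters with 2 edited reads the values were 1.39 ± 0.038 and 1.70 ± 0.0303, and with 11 or more they were 1.30 ± 0.0263 and 1.57 ± 0.0228. The mean of clusters with 1 edited read includes reads with 1 edited base, which were 0%, 5.95% and 1.25% of such members and 15.7%, 17.2% and 16.2% of such remaining clusters. Among single reads with several edited bases, the mean was 2.86, 3.06 and 2.73 in the members and 3.20, 3.16 and 3.20 in the remaining clusters, and thus lower in the members in each replicate. This split was added after the values were seen.

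Few C-dense clusters recurred, as was true of all clusters. A cluster counted as found in all 3 replicates if a cluster of each other replicate overlapped it by at least 1 base on its strand, which held for 37 of 420, 34 of 472 and 40 of 353 members. These are 8.81%, 7.20% and 11.3% of the members, and the share over all clusters was 10.6%, 9.86% and 13.1%. In 310, 365 and 247 members neither other replicate had an overlapping cluster. At like coverage the remaining clusters recurred in 7.41%, 7.30% and 10.1%, so that the members differed by 1.40, -0.0961 and 1.21 percentage points. The mean of 0.836 ± 0.813 is no larger than the spread between replicates (exact sign-flip permutation test, p = 0.5).

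Recurrence rose steeply with the number of edited reads in both sets. Of the members with 1 edited read, 0.417% ± 0.722 were found in all 3 replicates, and 2.27% ± 0.488 of the remaining clusters were. With 4 to 5 edited reads the shares were 12.7% ± 1.93 and 19.6% ± 6.13, and with 6 to 10 they were 21.0% ± 4.90 and 42.3% ± 5.94. With 11 or more edited reads they were 74.6% ± 12.7 and 80.2% ± 3.29. At a like number of edited reads the members thus recurred less, with a difference of -4.59 ± 0.71 percentage points, whereas among clusters of 45 bases at like coverage they recurred more, with 4.69 ± 1.54. Which set recurs more therefore depends on what is held equal.

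**Figure D4:**
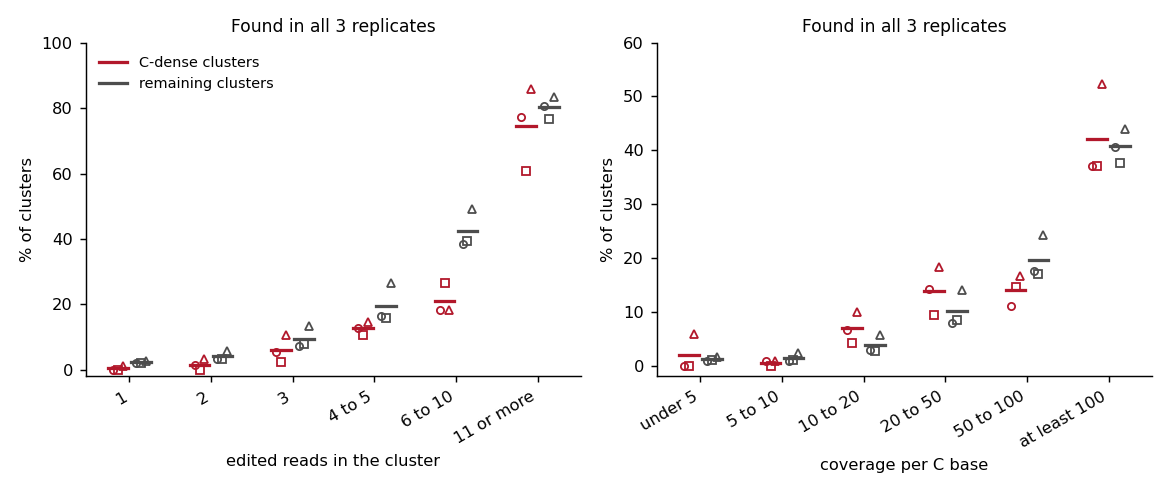
Percent of clusters found in all 3 replicates, by edited reads per cluster (left) and by coverage per C base (right), for C-dense (red) and remaining clusters (grey); open symbols are replicates 1 (circle), 2 (square) and 3 (triangle), bars their means. By edited reads the red mean lies below the grey one in each class, for example 21.0% against 42.3% with 6 to 10 edited reads, and by coverage the replicates of both sets overlap in 4 of the 6 classes.

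Merging overlapping C-dense clusters gave 1115 loci, of which 1013 were C-dense in 1 replicate, 74 in 2 and 28 (2.51%) in 3. Each replicate had to hold a C-dense cluster, which is stricter than the recurrence above. Of the 37, 34 and 40 members found in all 3 replicates, 26 in each overlapped C-dense clusters of both others. The share over all clusters merged in the same way is not given here. In 25 of the 28 loci the replicates shared at least 1 base. In the other 3, PLD3 and a pair of loci in POLR2A, they were joined through overlaps of neighbours. These 28 loci had a median edit fraction of 1.16%, from 0.259% to 6.34%, and 17 of them had the same bounds in each replicate. The SD over the replicates was a median of 0.244 of the mean. In 14 of the 28, edited bases did not outnumber edited reads in any replicate, so that an edited read carried about 1 edited base. Among the loci of remaining clusters that were found in 3 replicates this held for 82 of 1533, or 5.35%. Among loci of 45-base clusters it held for 14 of 17 C-dense and 51 of 111 remaining loci. This measure was chosen after the values were seen.

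**Figure D5:**
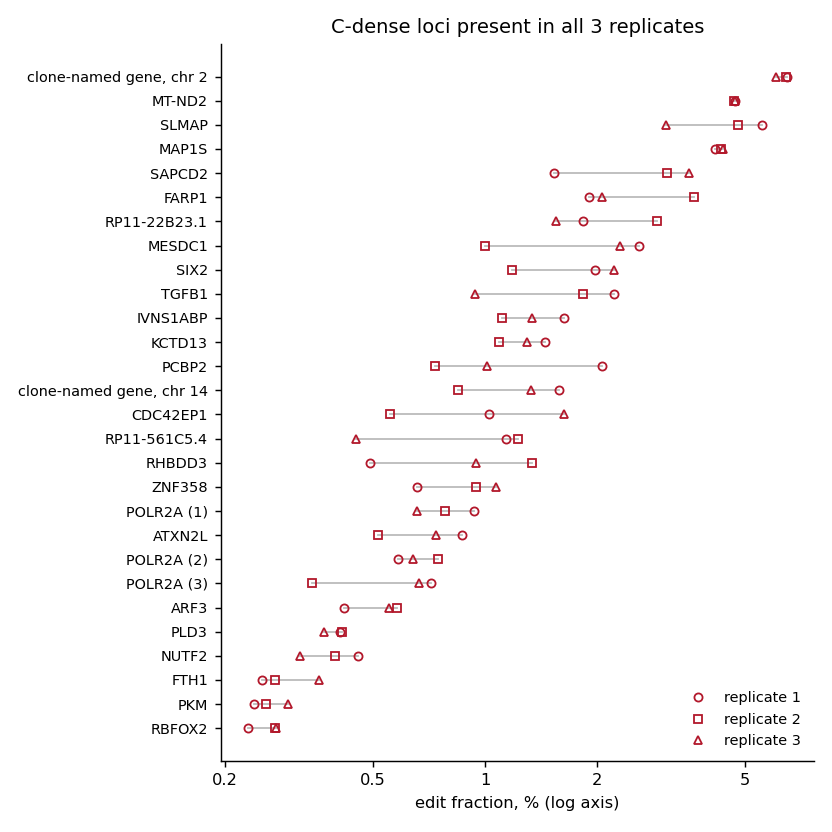
Edit fraction (%, log axis) of the 28 merged loci with a C-dense cluster in each replicate; symbols are replicates 1 (circle), 2 (square) and 3 (triangle) and grey lines span them. The loci range from 0.259% in RBFOX2 to 6.34% in a clone-named gene on chromosome 2, and the symbols of that gene, MT-ND2 and MAP1S nearly coincide while those of SAPCD2 and MESDC1 spread widely.

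At the most edited loci, the edits amounted to about 1 fully converted C base. Dividing edited bases by coverage per C base gives the number of C bases that would have to be fully converted to account for the edits. The highest edit fraction was that of a clone-named gene on the minus strand of chromosome 2 (chr2:172373810-172373854, hg19), with 6.50%, 6.45% and 6.06% in replicates 1, 2 and 3. Its 299, 253 and 244 edited bases came from as many edited reads, out of 358, 298 and 322 reads, and equal 1.24, 1.23 and 1.15 fully converted C bases. Its mean edit fraction was 6.34% ± 0.243, and no replicate fell into the range of any other locus.

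The MT-ND2 cluster (chrM:5311-5355, plus strand) followed the same pattern at the greatest number of edits. Its edit fraction was 4.69%, 4.68% and 4.69%, with 4587, 4197 and 3233 edited reads out of 6909, 6422 and 5023. This equals 0.938, 0.936 and 0.939 fully converted C bases at 0.988, 0.991 and 0.998 edited bases per edited read. Edited reads outnumbered edited bases in 2, 1 and 3 members, this cluster among them, and in 26, 11 and 8 remaining clusters. What produced these ratios below 1 was not tested. Mitochondrial transcripts are made inside the organelle, and only 7, 4 and 5 clusters lay in mitochondrially encoded genes, of which 2, 1 and 1 were C-dense. The SD over replicates, 0.00744 percentage points, was the smallest of the 28 loci.

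MAP1S, a microtubule-associated protein, had an edit fraction of 4.15%, 4.30% and 4.36% at chr19:17838769-17838813, where 23 of 45 bases are C. Of 34, 25 and 28 reads, 27, 18 and 23 were edited, which equals 0.955, 0.988 and 1.00 fully converted C bases. SLMAP, a membrane-anchored scaffold protein, lay outside the naming rule because its coverage was as low as 5 reads per C base, and was added after its values were seen. Its edit fraction at chr3:57742336-57742380 was 5.56%, 4.78% and 3.07%, from 5 of 5, 15 of 21 and 5 of 11 edited reads. Whether the edits at the chromosome 2 gene, MT-ND2, MAP1S and SLMAP are RNA edits or positions where the DNA of the cell line differs from the reference was not tested, because neither that DNA nor samples without the fusion were analysed here. The edit fractions of these 4 loci therefore cannot be read as editing levels alone. None of the other loci was compared with DNA either. In SAPCD2, for example, 7, 16 and 18 of 39, 39 and 32 reads were edited, also with 1 edited base each.

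Below these, edit fractions varied more between replicates. SAPCD2, which takes part in cell polarity, had 1.54%, 3.08% and 3.54% at chr9:139958097-139958141, with replicate 1 lowest. SIX2, a homeobox factor of the developing kidney, had 1.98%, 1.18% and 2.22% at chr2:45232391-45232465, with replicate 2 lowest. IVNS1ABP, a kelch-repeat protein, was steadier at chr1:185286221-185286265, with 1.63%, 1.11% and 1.34% from 13, 10 and 12 edited reads of 1 edited base each. KCTD13, an adaptor of a cullin ubiquitin ligase, had 1.45%, 1.09% and 1.29% at chr16:29917823-29917867. In KCTD13, 3 edited reads in each replicate carried 8, 5 and 8 edited bases, unlike the loci with 1 edited base per read. CDC42EP1, an effector of the small GTPase CDC42, had 1.02%, 0.555% and 1.63%, and the clone-named RP11-561C5.4 had 1.14%, 1.23% and 0.448%. RHBDD3 had 0.491%, 1.34% and 0.943%, and the zinc finger gene ZNF358 had 0.658%, 0.948% and 1.07%. None of these last 4 can be ranked, because their replicates overlap.

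Of the 10 recurrent loci with the highest mean C density, 6 had a mean edit fraction below the median of the 28 loci. That is close to the even split that a median makes by definition. FTH1, the heavy chain of the iron store ferritin, had the highest mean C density, 0.548, and an edit fraction of 0.251%, 0.273% and 0.358% from 18, 22 and 26 edited reads. A locus shared by ARF3, a small GTPase of the Golgi, and an overlapping clone-named gene had a mean C density of 0.511 and edit fractions of 0.418%, 0.578% and 0.550%. PLD3, a lysosomal exonuclease, had a mean C density of 0.51 and edit fractions of 0.408%, 0.411% and 0.369%. ATXN2L, a paralog of ataxin-2 found in stress granules, followed with 0.504 and edit fractions of 0.868%, 0.515% and 0.739%. Others of the 10 had higher values: MAP1S, with a mean C density of 0.511, had the 4.27% ± 0.104 given above, SIX2 had 1.79% ± 0.546, PCBP2 had 1.27% ± 0.702, and MESDC1, with a mean C density of 0.489, had 2.59%, 1.00% and 2.30%. FTH1, ARF3 and PLD3 also had higher coverage than MAP1S, MESDC1 and SIX2, up to 596 reads per C base in FTH1, and the edit fraction falls with coverage in these clusters (Spearman's rho within the members -0.828, -0.846 and -0.817).

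The lowest edit fractions were those of RBFOX2, PKM and FTH1, all at high coverage, although MT-ND2 had a coverage as high as RBFOX2 and an edit fraction of 4.69%. In RBFOX2 itself, to which reads of the introduced fusion can also map, 1 of 17, 16 and 16 clusters was C-dense in replicates 1, 2 and 3 (chr22:36156011-36156055), with an edit fraction of 0.230%, 0.272% and 0.274% and 95, 198 and 94 edited reads out of 4944, 8454 and 3861. PKM, the pyruvate kinase of proliferating cells, had 0.239%, 0.258% and 0.296% at chr15:72491416-72491460, from 42, 37 and 38 edited reads out of 1338, 1174 and 966. The ranges of RBFOX2, PKM and FTH1 overlapped, so these loci cannot be ordered.

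C-dense clusters were scattered over many genes. They touched 1087 of 9904 gene names (10.98%), of which 913 had one in 1 replicate, 125 in 2 and 49 in 3, and 886 had a single C-dense cluster in all. Of the 1087 names, 989 (91.0%) matched a RefSeq symbol, and 94.4% of those are protein-coding, against 93.3% of the matched genes without a C-dense cluster.

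POLR2A stood first by number, with 4, 4 and 6 C-dense clusters out of 7, 10 and 9. The gene encodes the largest subunit of RNA polymerase II, which ends in a tail of serine- and proline-rich repeats. All 14 lay in the same annotated exon, between chr17:7416356 and chr17:7417510, with C densities from 0.433 to 0.518 and edit fractions from 0.343% to 1.25%. Of the 28 recurrent loci 3 were in this stretch, and their edit fractions were 0.935%, 0.782% and 0.654% at chr17:7416596-7416850, 0.582%, 0.746% and 0.642% at chr17:7416896-7417045, and 0.715%, 0.343% and 0.663% at chr17:7417151-7417510. The longest members also came from here, with 150 and 135 bases in replicate 1, 195 and 165 in replicate 2 and 360 in replicate 3. The cluster of 360 bases held 166 C bases and 68 edited bases in 23 edited reads. The other members among the 3 longest of a replicate were in CCDC92 (150 bases, edit fraction 1.72%), RPS24, a ribosomal protein (120 bases, 1.43%), EPHA2, a receptor tyrosine kinase (150 bases, 2.37%), and ARID3B, a DNA-binding factor (120 bases, 1.67%), and none of these 4 recurred.

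After POLR2A, C-dense clusters were most numerous in ATXN2L, with 7 of 14 clusters over the 3 replicates, and in ATN1, the corepressor atrophin-1, with 6 of 8. The ATN1 clusters lay at 6 different places between chr12:7045296 and chr12:7051377, in replicates 1 and 3, and none recurred. The genes with 5 each were RP11-22B23.1, PCBP2, KCTD13, VAMP2 with the overlapping RP11-599B13.6, WBP2 and PLD3. Of these, VAMP2 is a SNARE protein of vesicle fusion and WBP2 a coactivator that binds WW domains. Of the C-dense clusters of PLD3, 4 lay between chr19:40884164 and chr19:40884268. CNOT3, a subunit of the CCR4-NOT deadenylase, also had 5 and came after these by position.

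PCBP2, which encodes a protein that binds poly(C) RNA, had 1, 2 and 2 C-dense clusters out of 10, 10 and 7. They lay between chr12:53868684 and chr12:53868893 and had edit fractions of 2.07% in replicate 1, 0.625% and 0.734% in replicate 2, and 1.59% and 1.01% in replicate 3. Coverage per C base was 27.9 in replicate 1, 20.9 and 28.4 in replicate 2 and 15.8 and 13.5 in replicate 3, although 410 to 498 reads were counted in each region. A gap of this kind between coverage and depth was more frequent among the members: coverage per C base was under 80% of the mean read depth in 15%, 16.5% and 16.1% of them and in 9.38%, 10.3% and 8.81% of the remaining clusters. What produced the gap was not tested.

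Across lists of genes with a shared role, the C-dense share of clusters stood beside 3.05% over all clusters. It was 9.28% ± 2.48 for glycolysis enzymes (3 of 25, 2 of 28 and 2 of 23), where PKM supplied 1 cluster in each replicate. Genes of collagens and the extracellular matrix had 1 of 12, 3 of 17 and 0 of 5, and those of proline-rich proteins had 6.71% ± 1.97 (2 of 23, 3 of 45 and 2 of 42). For homeobox, SOX and FOX factors it was 6.37% ± 1.61 (4 of 75, 6 of 73 and 3 of 54), with SIX2 as the one gene C-dense in each replicate. Clone-named genes had 5.61% ± 0.192 (37 of 635, 36 of 649 and 28 of 513), long noncoding RNA genes 5.09% ± 1.32, with MMP24-AS1 in each replicate, and tubulins and actins 5.22% ± 1.24, from a single gene, TUBB4A. Among these lists only the clone-named genes rest on more than 10 members in each replicate.

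Other lists were nearer to the share over all clusters or below it. Cytosolic ribosomal proteins had 3.15% ± 0.845, hnRNP and PCBP genes 2.79% ± 1.78, chromatin modifiers 3.45% ± 3.11, ZNF zinc finger genes 2.28% ± 0.538 and translation factors 2.17% ± 1.61. Solute carriers, with SLC44A2 in each replicate, had 4.35% ± 1.58, and kinesin, dynein and myosin motors 4.37% ± 2.77, both within their spread of the overall share. Ubiquitin conjugation and deubiquitination genes had 1.57% ± 0.307 and chaperones 0.713% ± 0.126, which is 1 cluster of 149, 163 and 117. SR factors and TRA2, splicing regulators as RBFOX2 is, had 1 of 77, 0 of 70 and 0 of 62. Histone genes had 0 of 37, 0 of 40 and 0 of 35, although the median C density of their clusters was 0.178, 0.2 and 0.171.

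By chromosome, the C-dense share was highest among the nuclear chromosomes on chromosome 19, with 10.4% (43 of 415), 13.4% (66 of 492) and 9.26% (35 of 378). Chromosome 22 had 6.13%, 4.47% and 5.97%, chromosome 17 had 5.03%, 4.25% and 5.88%, and chromosome 16 had 5.02%, 4.77% and 5.62%. All 3 replicates of chromosome 19 exceeded all of these. Shares were low on chromosome 5, with 1.66%, 0.722% and 1.47%, and on chromosome 4, with 1.25%, 1.59% and 1.67%.

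Within genes, the C-dense share was higher in introns and at the start of plus-strand genes. In introns it was 7.69% (24 of 312), 5.92% (21 of 355) and 6.63% (13 of 196), and in exons it was 2.83%, 3.04% and 3.04%, so the groups did not overlap. The number of the deposited exons rose with position in 861 of 869 plus-strand and 837 of 841 minus-strand genes, and on the plus strand the lowest number is thus nearest to the 5′ end. There, 8.49% (23 of 271), 7.07% (21 of 297) and 5.33% (13 of 244) of the clusters were C-dense, against 2.86%, 2.97% and 2.98% in the other exons of that strand. On the minus strand, where the lowest number marks the 3′ end, the share was 2.50%, 2.52% and 3.02% against 2.73%, 3.56% and 2.99%. In replicates 1 and 2 the share at the 3′ end was the lower one and in replicate 3 the higher one. The 5′ end of minus-strand genes was not set apart from their other exons, so its share is not known.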

How the data were processed

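Edited positions were called by the authors with SAILOR, which removes common SNPs, and clusters with FLARE (windows of 30 bases, an adjusted p-value threshold of 0.1, a merging distance of 15 bases), each replicate on its own. The processing notes of the submitters name STAR and hg19. For each cluster the deposited counts give its C bases, the covered and the edited C bases summed over reads, and its reads with and without edits, all unscaled. The edit fraction and the fraction of edited reads given by the authors were recomputed from these counts in every cluster. Mean read depth is a coverage signal deposited by the authors without scaling, and the score of the authors was used only in an alternative. Clusters hold only windows that passed the filter, so the depth of the libraries is not given by these values.

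Values were computed with Python 3.11.15, NumPy 2.4.6, pandas 2.3.3 and SciPy 1.17.1 and drawn with matplotlib 3.10.9. The class-weighted comparison was tested on simulated edit fractions, in narrower coverage classes than those of the main results. The search for overlaps was checked on a sample of the deposited clusters. Clusters were compared within 6 classes of coverage per C base, weighted by the number of members, leaving out classes with fewer than 10 clusters on a side. Differences over the 3 replicates were tested with exact two-sided sign-flip permutation tests, and clusters within a replicate were not tested. Named were the 10 recurrent loci with the highest mean edit fraction at a coverage of at least 20 per C base in each replicate, the 10 with the highest mean C density and the 5 with the most edited bases. Also named were the 10 genes with the most C-dense clusters, the 3 longest members of each replicate and, for each of 19 gene lists, up to 4 genes with a C-dense cluster in each replicate. Members, measures and lists were chosen with earlier results of these data known. Clone names made mostly of digits are given by position. Positions are those of the deposited clusters, counted from 1. The genome sequence of hg19 was not used here, so no cluster sequence is shown, and RefSeq symbols of GRCh38.p14 served only for gene classes.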

Additional observations from a re-analysis of the deposited data

How the results depend on the processing

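Leaving out each replicate in turn kept the sign of the differences at like coverage in edit fraction, edited bases per edited read and edited bases per cluster. It had to, since all replicates shared these signs. For recurrence, the share found in both kept replicates, a looser measure, took the place of the share found in all 3. Its difference went from -0.971 to 0.371 percentage points and was negative without replicate 3. All differences were taken within replicates, and with 1 group no other pairing exists. In edit fraction the difference of -1.54 percentage points became -1.45 with a minimum C density of 0.35, -1.70 with 0.45, -1.28 in classes of mean read depth, -1.15 with at least 2 edited reads, -1.80 with means, -0.96 on the log2 scale, -0.244 in classes of covered C bases, -1.32 in clusters of 45 bases and -1.37 where coverage was at least 80% of depth. In edited bases per edited read the difference of -0.39 became -0.286 with a minimum C density of 0.35, -0.429 with 0.45, 0.13 in clusters of 30 bases, -0.298 with at least 2 edited reads, -0.204 in a least-squares fit with coverage and length, -10.1 percentage points as the share of clusters above 1 edited base per edited read, -0.448 with summed values, -0.504 in classes of covered C bases and -0.15 in clusters of 45 bases. In the share found in all 3 replicates the difference of 0.836 percentage points became -0.0515 with a minimum C density of 0.35, 2.30 with 0.45, -0.102 in classes of mean read depth, -0.595 in clusters of 30 bases, 3.96 in the least-squares fit, 2.75 with an overlap of at least 50%, -4.59 in classes of edited reads, -4.61 in classes of covered C bases, 4.69 in clusters of 45 bases and 2.12 with 1 base added to the length. In edited bases per cluster the difference of 0.20 (log2) became 0.15 in narrower classes, 0.13 in classes of mean read depth, 0.54 in clusters of 30 bases, 0.0877 with at least 2 edited reads, 0.48 in the least-squares fit, 10.5 edited bases with means, -0.25 in classes of covered C bases, 0.45 in clusters of 45 bases, 0.27 with 1 base added to the length and 0.23 where coverage was at least 80% of depth. The C-dense share of 3.05% became 5.92% with a minimum of 0.35, 1.02% with 0.45, 3.75% in clusters of 30 bases, 2.95% where scores reached 0.95, 3.53% with at least 2 edited reads and 2.07% with 1 base added to the length. Classes of covered C bases, clusters of 45 bases, the added base and the limit of 80% were chosen after seeing the data. The cause of these shifts was not tested. All 79 alternative values of named loci and 62 of 90 of gene lists moved by less than the spread between replicates. However, 63 of the 79 and 54 of the 90 left out 1 replicate, and such a mean cannot move further than that spread. The other values of named loci, with an overlap of at least 50%, repeated the main ones. In gene lists 28 values moved further, all with a changed minimum C density. PCBP2, PLD3, RHBDD3 and both named loci of POLR2A had no value with an overlap of at least 50%. A planned comparison of the proline share of the encoded proteins was not run. Low counts of edited reads limit the edit fraction of single clusters.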
